A study of Homo sapiens with 18 samples.

Results

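GC-rich introns of medium length were followed through a labelling time course of newly made RNA in HEK293 cells, a human embryonic kidney line. They were chosen by structure alone from the authors' hg19 intron table. An intron was a member when its length lay from 150 nt to below 10000 nt and at least 0.55 of its bases were G or C. The rule found 1803 of the 21782 listed introns (8.28%), which is 10.2% of the 17707 medium-length introns. The other 15904 medium-length introns, with a GC fraction below 0.55, served for comparison. Members lay in 898 genes, of which 526 held 1 member and 74 held at least 5, and 148 members shared a splice site with another listed intron. Protein-coding genes held 98.7% of them.

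The study labelled HEK293 cultures with 500 µM 4-thiouridine, a uridine analogue built into RNA as it is made, for 7.5, 15, 30, 45 or 60 min, and isolated the labelled RNA by biotin and streptavidin. Each labelling time had 3 libraries, 15 in all, and unselected total RNA had 3 libraries that differed in ribosomal RNA removal (poly(A) selection, RNase H and Ribo-Zero). All groups came from the same unmodified cell line in the same medium. Nothing in the labels says that replicates were separate cultures, so a p-value here measures how far single libraries scatter, and that scatter may be technical. The excised share of an intron is the fraction of junction and splice-site reads that show it removed. The authors deposited 1 value per intron and labelling time, the mean of 3 libraries, for introns with more than 5 reads in all 3. Read depth per intron and the spread between libraries are therefore unknown for this measure. All 1803 members had a value at all 5 times. Differences in excised share are given below as descriptions with no test, and introns are not replicates.

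As background, splicing removes an intron in 2 cuts, at a 5′ splice site that usually begins with GT and a 3′ splice site that ends with AG, behind a branch point and a run of pyrimidines. In human genes, short GC-rich introns between GC-rich exons are typical of compact, gene-dense chromosome regions, whereas long AT-rich introns separate exons that are richer in GC than they are. Runs of 3 or more G are bound by hnRNP H family proteins and are frequent in short GC-rich introns. In labelled RNA, the excised share of an intron usually grows with labelling time, because older labelled molecules have had more time to be spliced.

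The 6 introns below show the sequences behind these values, each between coding exons of its gene and at most 300 nt long. They came from GENCODE release 29 transcripts that retain the intron, matched to members by gene, length and GC fraction. Capitals mark the first 6 bases with the 5′ splice site and the last 20 bases with the 3′ splice site. BTBD2 and OAZ1 were the matched introns most excised at 7.5 min, CDK16 the least excised at 60 min, APRT one with a large decrease from 7.5 to 60 min, and HES1 and ANKRD11 those with the largest increase.
BTBD2: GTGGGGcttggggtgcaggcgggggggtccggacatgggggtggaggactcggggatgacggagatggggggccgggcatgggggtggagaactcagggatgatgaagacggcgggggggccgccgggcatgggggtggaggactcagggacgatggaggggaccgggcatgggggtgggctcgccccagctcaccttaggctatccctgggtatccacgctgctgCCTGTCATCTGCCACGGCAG
OAZ1: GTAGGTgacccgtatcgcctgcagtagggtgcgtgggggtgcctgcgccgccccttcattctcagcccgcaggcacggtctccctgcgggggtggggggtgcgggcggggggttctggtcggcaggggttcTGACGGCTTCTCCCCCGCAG
CDK16: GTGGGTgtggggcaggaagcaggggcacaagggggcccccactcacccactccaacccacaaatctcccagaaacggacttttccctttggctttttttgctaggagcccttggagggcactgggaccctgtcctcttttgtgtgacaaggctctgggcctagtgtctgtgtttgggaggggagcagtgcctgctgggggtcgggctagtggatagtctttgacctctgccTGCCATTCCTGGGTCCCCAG
APRT: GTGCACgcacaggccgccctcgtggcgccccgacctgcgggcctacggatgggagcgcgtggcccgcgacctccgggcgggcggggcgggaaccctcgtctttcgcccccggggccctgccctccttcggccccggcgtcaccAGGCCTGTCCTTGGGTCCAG
HES1: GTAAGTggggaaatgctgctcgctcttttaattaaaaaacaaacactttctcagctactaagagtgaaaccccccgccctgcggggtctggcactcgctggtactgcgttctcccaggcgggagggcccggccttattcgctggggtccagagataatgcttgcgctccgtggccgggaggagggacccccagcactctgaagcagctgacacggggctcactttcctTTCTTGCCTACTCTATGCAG
ANKRD11: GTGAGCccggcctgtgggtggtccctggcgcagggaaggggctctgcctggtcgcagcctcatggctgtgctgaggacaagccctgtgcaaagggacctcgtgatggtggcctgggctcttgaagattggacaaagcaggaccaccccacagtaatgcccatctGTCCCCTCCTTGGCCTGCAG

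In GRCh38 these introns lie at chr19:1987254-1987499 (BTBD2, minus strand), chr19:2272821-2272971 (OAZ1, plus), chrX:47226028-47226278 (CDK16, plus), chr16:88811657-88811819 (APRT, minus), chr3:194136713-194136960 (HES1, plus) and chr16:89290829-89291012 (ANKRD11, minus). The BTBD2 intron, in a gene for a BTB domain protein, had 41 overlapping occurrences of GGG on the transcribed strand in 246 bases. The OAZ1 intron, in the gene for ornithine decarboxylase antizyme, had 18 in 151 bases. The other 4 had 6 to 19. CDK16, a cyclin-dependent kinase gene whose intron was among the least excised, had 19 in 251 bases, so the motif was frequent at both ends of the range.

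Over the members for which a sequence was found (240 of 1803) the median was 4.7 GGG per 100 bases, 3.31 CCC and 3.29 CpG. The corresponding medians in 607 of the 15904 other introns were 1.29, 0.96 and 0.78. GGG occurred at least once in 99.6% of the matched members and in 93.4% of the matched other introns. The 17 bases before the 3′ AG were counted with the base next to the AG left out. Their median C content was 41.2% in members and 23.5% in other introns, and that of T was 35.3% and 52.9%. The pyrimidine content was 76.5% in both, so the tract of the GC-rich introns was of the same richness but made more of C. The first 3 bases were GTG in 55% of matched members and 28.8% of the others. Introns retained in an annotated transcript are not typical of their class: their median excised share at 60 min was 0.703 (members) and 0.702 (others). Base composition is linked to the GC rule, so these figures describe the members and do not test them.

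The features in the authors' table, which covers all members, set the same classes apart in exon composition and gene architecture more than in splice site strength. The median member was 514 nt long against 1600 nt for the other medium-length introns. Its upstream exon had a GC fraction of 0.602 against 0.459, and its downstream exon 0.578 against 0.448. The median distance to the transcription start was 7766 nt against 19977 nt, and that to the polyadenylation site 9040 nt against 23532 nt. The median 5′ splice site score was 8.69 against 8.76, and the 3′ score 9.14 against 8.61. The branch point score was higher in members, 1.52 against 0.605 (medians), and the polypyrimidine tract score was 28 in both. Of the members, 446 (24.7%) lay on chromosome 19, where they made up 41.7% of the medium-length introns. Chromosome 22 followed with 22.1%, chromosome 21 with 15.1% and chromosome 16 with 13.9%.

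By class median, GC-rich introns were excised more than other introns at the earliest time and less from 30 min on. The late deficit was small or absent beside the most GC-rich exons, as given below. At 7.5 min their median excised share was 0.640 (quartiles 0.505 and 0.763), against 0.528 (0.412 and 0.643) in the other medium-length introns. At 15 min the medians were 0.582 and 0.570, a difference of 0.012. At 30 min the order was the other way, with 0.630 (0.493 and 0.748) against 0.699 (0.580 and 0.799). The medians were 0.742 and 0.811 at 45 min, and 0.793 and 0.847 at 60 min. The quartile ranges of the classes overlapped at every time. The member median was lower at 15 min than at 7.5 min, whereas that of the other introns was higher at each successive time.

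**Figure D1:**
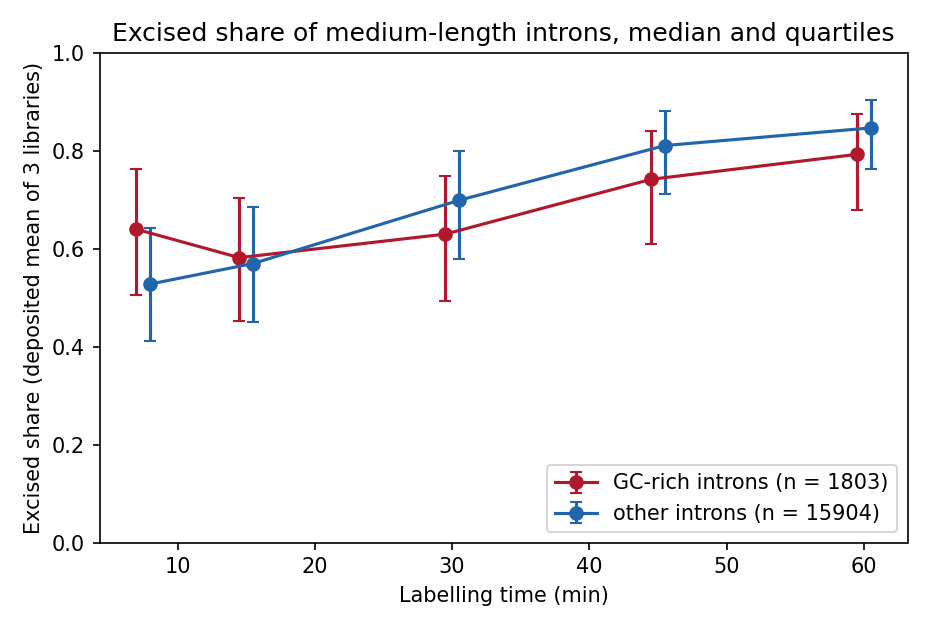
Excised share against labelling time (min) for the 1803 GC-rich and 15904 other medium-length introns. Points are medians over introns of the deposited means of 3 libraries and bars span the quartiles over introns. The GC-rich line starts above the other, at 0.640 against 0.528, and lies below it from 30 min on.

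The dip between 7.5 and 15 min was seen in most members. The excised share was lower at 15 min than at 7.5 min in 1200 of 1803 members (66.6%), against 38.8% of all listed introns and 35.9% of the other medium-length introns. It was lower by at least 0.1 in 583 members (32.3%; 12.8% of all listed introns). From 15 to 30 min 659 members (36.6%) had a lower value, and from 30 to 45 min 215 (11.9%). Over the whole course, 358 members (19.9%) had a lower value at 60 min than at 7.5 min, against 5.44% of all listed introns and 566 other medium-length introns (3.56%). It was lower by at least 0.1 in 157 members (8.71%; 1.96% of all listed introns). The median change from 7.5 to 60 min was 0.139 in members and 0.298 in the others. At 7.5 min 80 members (4.44%) already had an excised share of at least 0.9 (1.1% of all listed introns), and at 60 min 124 members (6.88%) were still below 0.5 (2.95% of all listed introns).

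The pattern was graded over GC content. At 7.5 min the median excised share was 0.510 in medium-length introns with a GC fraction below 0.35, 0.603 from 0.55 to below 0.60, 0.652 from 0.60 to below 0.65 and 0.703 (n = 357) from 0.65 on. At 60 min the median was 0.875 below 0.35, 0.793 from 0.55 to below 0.60 and 0.777 from 0.60 to below 0.65, and 0.814 from 0.65 on. Spearman's rho of GC fraction and excised share over the 17707 medium-length introns was 0.181 at 7.5 min, −0.045 after 15 min, −0.282 after 30 min and −0.246 after 60 min. Among the members alone rho was 0.202 at 7.5 min and 0.036 at 60 min, so the late decline with GC content lay mostly below the 0.55 boundary. These correlations run over introns that share libraries and genes, and are descriptions.

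**Figure D2:**
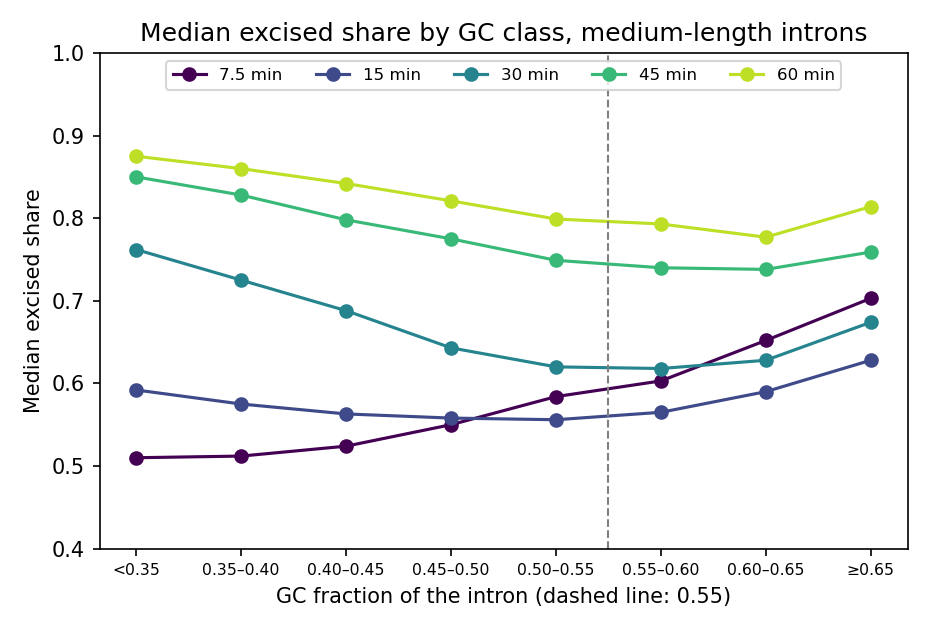
Median excised share of medium-length introns in 8 classes of GC fraction, 1 line for each labelling time. The 7.5 min line climbs from 0.510 to 0.703 with GC content while the 30 min line drops from 0.762 to 0.618 and is 0.674 in the highest class.

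Introns on either side of the boundary did not form separate groups. Just inside, with a GC fraction of 0.55, were introns of MLX, a transcription factor gene (0.472 at 7.5 min and 0.837 at 60 min), and HDLBP, the gene of vigilin (0.889 and 0.981). Just outside, below 0.55 by less than rounding shows, were introns of ZC3H7B (0.845 and 0.772), MLXIP, a partner of MLX (0.734 and 0.891), and TXNRD2, a mitochondrial thioredoxin reductase (0.867 and 0.921).

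The early excess and the late deficit were both present in each of 5 length classes. Among introns from 150 to below 300 nt (508 members and 1097 others) the difference in median, members minus others, was 0.115 at 7.5 min, −0.068 at 30 min and −0.054 at 60 min. Among introns from 3000 to below 10000 nt (85 and 4247) it was 0.056, −0.138 and −0.104. The early difference was larger in the short classes and the late one in the longest. Classes were also cut at the member quartiles of upstream exon GC fraction. Below 0.554, the 60 min medians were 0.784 in 451 members and 0.855 in 13052 others. From 0.554 they were 0.802 and 0.815, from 0.602 0.805 and 0.794, and from 0.649 0.776 and 0.781. In that last class they were 0.649 and 0.529 at 7.5 min, and 0.618 and 0.611 at 30 min. With a downstream exon of 0.622 or more they were 0.799 and 0.797 at 60 min.

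The late difference was smaller within classes of distance from the ends of the gene. Members were sorted into 4 classes at the quartiles of their own distance to the transcription start. Below 3400 nt, the median excised share at 60 min was 0.755 in 451 members and 0.762 in 1398 other introns, and at 7.5 min 0.686 and 0.583. At 15200 nt or more it was 0.838 and 0.869 at 60 min, and 0.618 and 0.531 at 7.5 min. Averaged over the 4 classes, the difference was 0.109 at 7.5 min, −0.020 at 30 min and −0.027 at 60 min, against 0.112, −0.069 and −0.054 without the classes. With distance to the polyadenylation site in place of the start it was 0.096, −0.013 and −0.025. The early excess thus stayed near its size within classes of distance to the start and was somewhat smaller by the polyadenylation site. The late deficit was smaller by both. The farthest class from the start has no upper limit and held 451 members and 9570 other introns, so distances were matched only in part. The dip at 15 min also moved with position: 77.6% of members below 3400 nt had a lower value at 15 than at 7.5 min, and 51.4% of those at 15200 nt or more. In the other introns of the same classes the percentages were 66.7% and 26.5%. Below 4340 nt from the polyadenylation site the dip was about as frequent in both, with 80.0% of 451 members and 76.2% of 846 other introns. At 17300 nt or more from that site the percentages were 53.4% and 26.9%.

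Splice site scores moved the values less. Members in the lowest quartile class of the 5′ splice site score, below 7.28, had a median of 0.641 at 7.5 min and 0.765 at 60 min, and those at 9.63 or more had 0.641 and 0.808. For the 3′ score the corresponding medians were 0.627 and 0.781 below 7.39, and 0.634 and 0.792 at 10.6 or more. The 121 members that the authors placed beside alternative exons had medians of 0.623 at 7.5 min and 0.771 at 60 min, and the 1682 beside constitutive exons 0.642 and 0.796. In the other medium-length introns that contrast was wider, with 0.443 and 0.754 beside 789 alternative junctions and 0.531 and 0.850 beside 15115 constitutive ones. Of the 16 members that carry a snoRNA, 93.8% had a lower value at 15 than at 7.5 min, against 66.6% of all members, 38.8% of all listed introns and 58.6% of the 145 other medium-length introns with a snoRNA.

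The early excess also moved with the stability of the host transcript. The authors' degradation score, estimated from these same labelling times, had a median of −0.257 over members and −0.177 over the other introns. The notes deposited with the files call it a degradation rate, so a higher score was taken to mean faster decay, a sense not checked otherwise. In the 3 equal-sized classes of that score over medium-length introns, the class of slowest decay had medians at 7.5 min of 0.728 in 797 members and 0.574 in 5116 other introns. In the class of fastest decay they were 0.526 in 462 members and 0.507 in 5438 others. The dip at 15 min followed the same order, since the member median went from 0.728 to 0.627 in the slow class and from 0.526 to 0.531 in the fast class. At 60 min the members of the 3 classes were alike, at 0.796, 0.788 and 0.794, and each was below the other introns of its class (0.832, 0.854 and 0.854). Mature TPM of the host in total RNA moved the same way: in the class of most abundant hosts the 7.5 min medians were 0.709 and 0.549, and in the least abundant 0.579 and 0.535. Whether RNA decay or abundance takes part in the early excess was not tested.

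**Figure D3:**
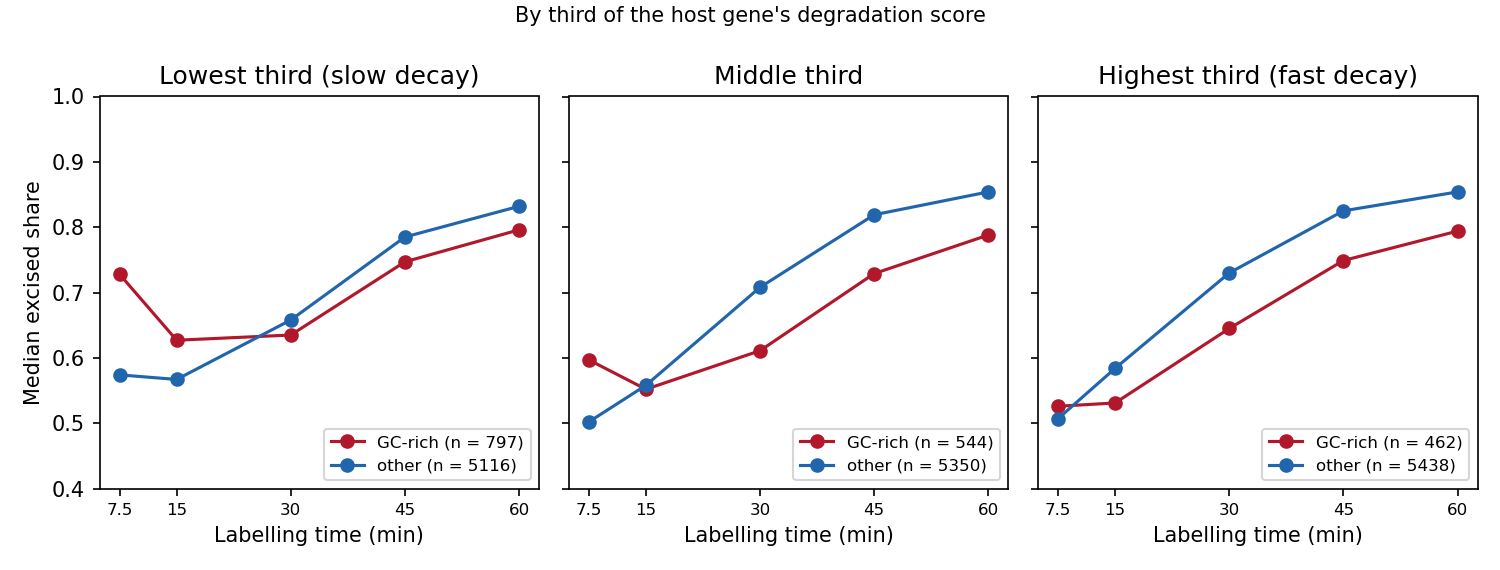
Median excised share against labelling time (min) in 3 equal-sized classes of the authors' degradation score of the host gene, GC-rich introns in red and other medium-length introns in blue. The GC-rich line starts at 0.728 in the class of slow decay and at 0.526 in that of fast decay, and ends below the other line in each.

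Within genes the early excess was smaller and the late deficit was not seen in the median difference. In 641 genes that held both classes, the median of the within-gene difference, GC-rich minus other introns of the same gene, went from 0.034 at 7.5 min through 0.021, 0.013 and 0.008 to −0.002 at 60 min. The GC-rich introns had the higher median at 7.5 min in 398 of these genes and the lower in 243, and at 60 min the counts were 315 and 326. Pooled over these genes, in which each gene counts by its number of introns, the GC-rich introns had a median of 0.621 at 7.5 min and 0.794 at 60 min, and the other introns 0.557 and 0.826. The pooled medians thus kept a late deficit that the median of the per-gene differences did not show. In the 2887 genes with no GC-rich medium intron they had 0.520 and 0.852. The 500 members in the 257 genes whose medium-length introns were all GC-rich had 0.691 and 0.788.

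Of the genes with the most members, AP3D1, the delta subunit of the AP-3 adaptor complex, had 19, with a median of 0.771 at 7.5 min, 0.709 at 15 min and 0.891 at 60 min. FASN, fatty acid synthase, had 16 and no other medium-length intron, and its median was 0.737 at 7.5 min, 0.569 at 30 min and 0.751 at 60 min. MYH9, non-muscle myosin heavy chain, had 13 members and 13 other introns. Their medians were 0.552 and 0.616 at 7.5 min, 0.657 and 0.571 at 15 min, and 0.894 and 0.893 at 60 min. The early order was thus the reverse of that of the classes. SMARCA4, the BRG1 helicase of the SWI/SNF complex, had 12, with 0.762 and 0.902, and ACTN4, an actin cross-linker, had 12, with 0.614 and 0.781. Among the 80 genes with at least 3 introns of each class, XRCC1, a DNA single-strand break repair scaffold, showed the largest early excess of its GC-rich introns, 0.813 against 0.532 at 7.5 min, and the medians were 0.877 and 0.882 at 60 min. In RCC1, the guanine exchange factor of Ran, they were 0.512 and 0.320 at 7.5 min, and in TACC3, a spindle protein, 0.660 and 0.406. The opposite order was seen in GRAMD1A, a sterol transporter, with 0.413 and 0.653 at 7.5 min and 0.583 and 0.825 at 60 min, and in CUX1, a homeobox gene, with 0.368 and 0.520, then 0.733 and 0.888.

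The 6 members excised most at 7.5 min were led by an intron of RPLP2. RPLP2, a ribosomal stalk protein (hg19 chr11:810040-810233, 194 nt, GC fraction 0.778), had an excised share of 0.989 at 7.5 min, 0.915 at 30 min and 0.943 at 60 min. GPX4, a lipid peroxide reductase (chr19:1104127-1105184), had 0.984, 0.915 at 15 min, 0.560 at 30 min and 0.800 at 60 min. BSG, the gene of basigin (chr19:582331-582513), had 0.982, 0.858 at 30 min and 0.932 at 60 min. Introns of EPN1, an endocytic adaptor, and of AP3D1 had 0.980 and 0.978 at 7.5 min and 0.862 and 0.763 at 15 min. PIEZO1, a mechanosensitive channel gene with a 5′ splice site score of 2.13, stayed between 0.955 and 1.00 at all times. Of these 6, only the PIEZO1 intron had no dip at 15 min. They were chosen for the highest values at 7.5 min, near the upper limit of the share. A lower value at 15 min thus follows in part from the choice and says little about the class.

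The 6 members with the largest increase from 7.5 to 60 min were led by TLE3. TLE3, a Groucho corepressor (hg19 chr15:70345714-70346776), had 0.201, 0.430, 0.757 and 0.870 at 7.5, 15, 30 and 60 min. MYC, a transcription factor gene, had 0.278, 0.595, 0.823 and 0.920. BCOR, a BCL6 corepressor, went from 0.313 to 0.949, TSC22D3, the glucocorticoid-induced leucine zipper gene, from 0.226 to 0.851, and NR2F2, an orphan nuclear receptor, from 0.240 to 0.851. SMG5, a nonsense-mediated decay factor, had 0.230 and 0.839. In TLE3 the junction ran cagGTgagc at the 5′ site and tccctgcttggctttcgtAGgca at the 3′ site, each with 3 exon bases at its outer end and with the GT and AG of the intron in capitals. These and the splice sites below come from the same GENCODE release 29 match.

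The members least excised at 60 min were led by CDK16. CDK16 had 0.392 at 7.5 min, 0.150 at 30 min and 0.149 at 60 min (hg19 chrX:47085427-47085677), with 5′ and 3′ splice site scores of 3.99 and 5.88. AURKB, the Aurora B kinase gene (chr17:8110207-8110493), had 0.232, 0.068 and 0.158, and a 5′ site of gcaGTatgg that scored 1.15. DDX39A, an RNA helicase of mRNA export (chr19:14520686-14521027), had 0.476, 0.177 and 0.191. RPL10A, a large ribosomal subunit protein (chr6:35436805-35437157), had 0.380, 0.108 and 0.192 with a 5′ site of cagGTtggc, which scored 5.52. NPIPB3 had 0.196, 0.150 and 0.153, but belongs to a family of near-identical genes between which reads can be split, and its values are uncertain. These 5 introns were below 0.5 at every time, 7.5 min included.

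APRT, which encodes adenine phosphoribosyltransferase and was also among the 6 lowest at 60 min, had a high early value. Its 993 nt member (chr16:88876965-88877957) had excised shares of 0.717, 0.444, 0.200, 0.124 and 0.173 in order of labelling time. Its printed 163 nt member, with a GC fraction of 0.779, had 0.754, 0.508, 0.305, 0.290 and 0.338. Other large decreases, chosen after their values were seen, were in EIF3G, a translation initiation factor subunit, from 0.822 to 0.349, and NDUFA11, a complex I subunit, from 0.725 to 0.272. In each of the 3 genes the steepest part of the course lay before 30 min. The 5′ splice sites were gagGTgtgg (score 4.48) in EIF3G and gcaGTgagt (7.39) in NDUFA11.

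**Figure D4:**
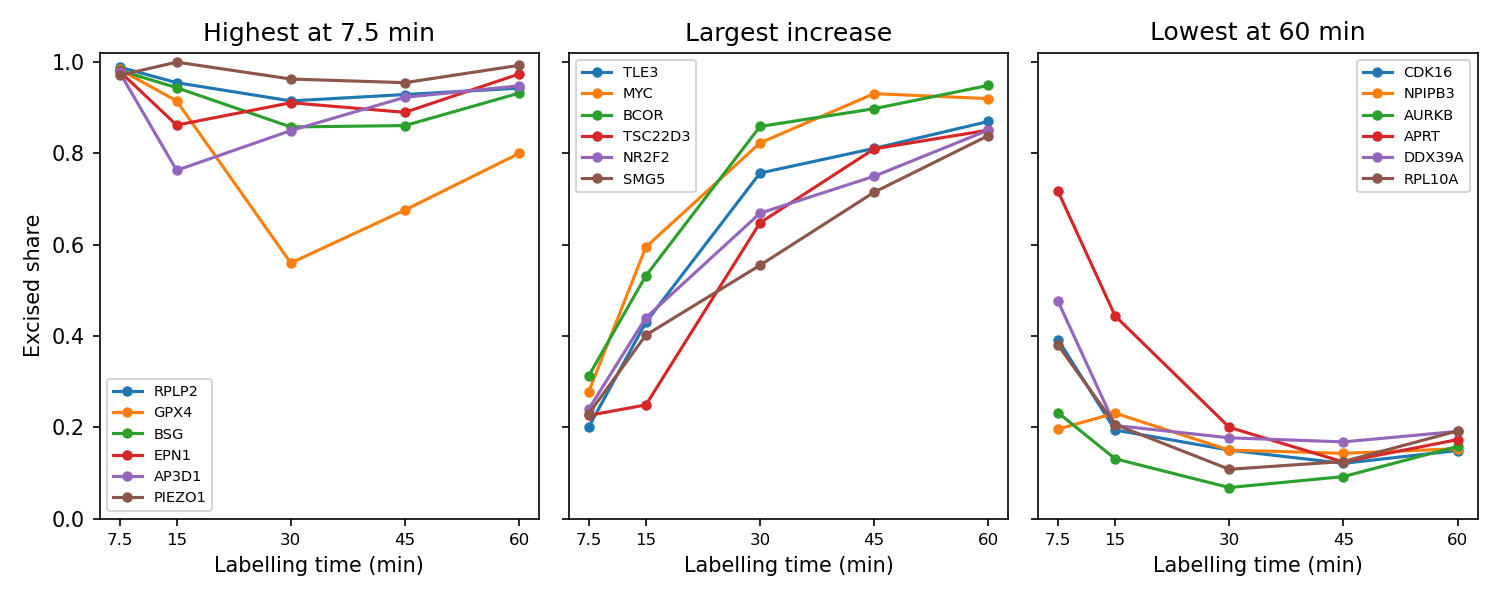
Excised share against labelling time (min) of the named GC-rich introns, 1 line an intron, in 3 panels by the rule that named them. The introns highest at 7.5 min start above 0.97, those with the largest increase start between 0.201 and 0.313, and the 6 lowest at 60 min end between 0.149 and 0.192.

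Among gene lists, cytosolic ribosomal proteins had 68 GC-rich of 271 medium-length introns, in 40 genes. Their GC-rich introns had a median of 0.786 at 7.5 min, 0.652 at 30 min and 0.766 at 60 min, and 65 of 68 had a lower value at 15 than at 7.5 min (66.6% of all members and 38.8% of all listed introns). The other medium-length introns of the listed genes followed a like course, at 0.718, 0.608 and 0.764. RPS2 (0.922 at 7.5 min and 0.775 at 60 min over 2 members) and RPS21 (0.850 and 0.608 over 4) ended lower than they began, whereas RPL3 (0.702 and 0.833 over 5) ended higher. Without ribosomal protein genes the difference between all members and other introns was 0.108 at 7.5 min and −0.053 at 60 min.

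SR proteins and CLK kinases, which are splicing regulators with retained introns of their own, lay at the other end. Their 11 GC-rich introns of 71, in CLK3, SRSF1, SRSF5, SRSF6 and SRSF7, had medians of 0.322 at 7.5 min, 0.308 at 15 min and 0.719 at 60 min. The other medium-length introns of all listed SR and CLK genes, with or without a member, followed a like course, at 0.380, 0.379 and 0.773. The 5 members in CLK3 ranged from 0.279 to 0.385 at 7.5 min and from 0.540 to 0.835 at 60 min. Core spliceosome genes had 35 GC-rich introns of 311, with 0.630 and 0.873. Glycolysis genes had 24 of 80, with 0.803 and 0.853, and RNA polymerase II subunits 10 of 36, with 0.838 and 0.831. The other medium-length introns had 0.583 and 0.857 in the spliceosome list, 0.669 and 0.869 in glycolysis, and 0.639 and 0.827 in the polymerase. Tubulins had 7 of 14 (0.692 and 0.725, against 0.783 and 0.848 in their other introns) and aminoacyl-tRNA synthetases 3 of 195. A list drawn up for lysosomal hydrolases had 3 of 16, in LAMP1 and PSAP, lysosomal proteins that are not hydrolases. The lists are described by their medians only.

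Gene-level TPM (transcript abundance relative to the whole library), which were deposited for every library, showed a like crossing between genes, with replicates. The genes compared were not matched for length or for the position of their introns, in which the classes differ. Unspliced share means primary TPM as a percentage of primary plus mature TPM. GC-rich hosts were the 108 genes with at least 2 medium-length introns listed, all of them GC-rich (351 members), and other hosts the 2024 genes whose medium-length introns were all below 0.55. All 108 and 2023 of the 2024 passed the filter of a mean of 1 TPM mature and 0.1 TPM primary. At 7.5 min the median unspliced share over GC-rich hosts was 21.8%, 20.3% and 22.0% in the 3 libraries, and over other hosts 35%, 32.7% and 32.8%. The 3 GC-rich values lay below all 3 others. At 30 min they were 27.1%, 21.2% and 26.8% in GC-rich hosts and 21.4%, 18.9% and 22.6% in other hosts, and at 60 min 12.7%, 13.7% and 14.8% against 7.82%, 11% and 12.2%. Within each library from 30 min on, GC-rich hosts had the higher median.

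The gap, GC-rich minus other hosts within a library, was −12.1 ± 1.21 percentage points at 7.5 min and −3.89 ± 0.617 at 15 min (SD, n = 3). In the libraries of 30 min it was 4.09 ± 1.67, in those of 45 min 3.27 ± 1.76 and in those of 60 min 3.34 ± 1.32. It was below 0 in all 6 libraries of 7.5 and 15 min and above 0 in all 9 of 30 min and later. The change from 7.5 to 60 min was 15.4 points, with a two-sided exact permutation p of 0.1, the smallest that 3 against 3 libraries can give. Over the 15 labelled libraries the gap and labelling time had a Pearson's r of 0.801 (permutation p = 0.0004) and a Spearman's rho of 0.753 (permutation p = 0.002), the only relation computed. Without the 2 libraries farthest from the median time, r was 0.811 to 0.846 over the 3 possible choices. Those 2 are always libraries of 60 min, so this check keeps all libraries of 7.5 min, where the gap was lowest. Leaving out single libraries of 7.5 min gave an r of 0.773 to 0.778. Without replicate 2 at 45 min, in which fewer mature transcripts were listed above 0 (15159 genes against 18318 to 20407 in the other labelled libraries), r was 0.800. In total RNA the unspliced share was 0.854% to 1.43% in GC-rich hosts and 1.25% to 2.01% in other hosts. Those ranges overlapped, and within each of the 3 libraries the gap was below 0, at −0.400, −0.745 and −0.173 points (poly(A), RNase H and Ribo-Zero), the reverse of its sign in labelled RNA from 30 min on.

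**Figure D5:**
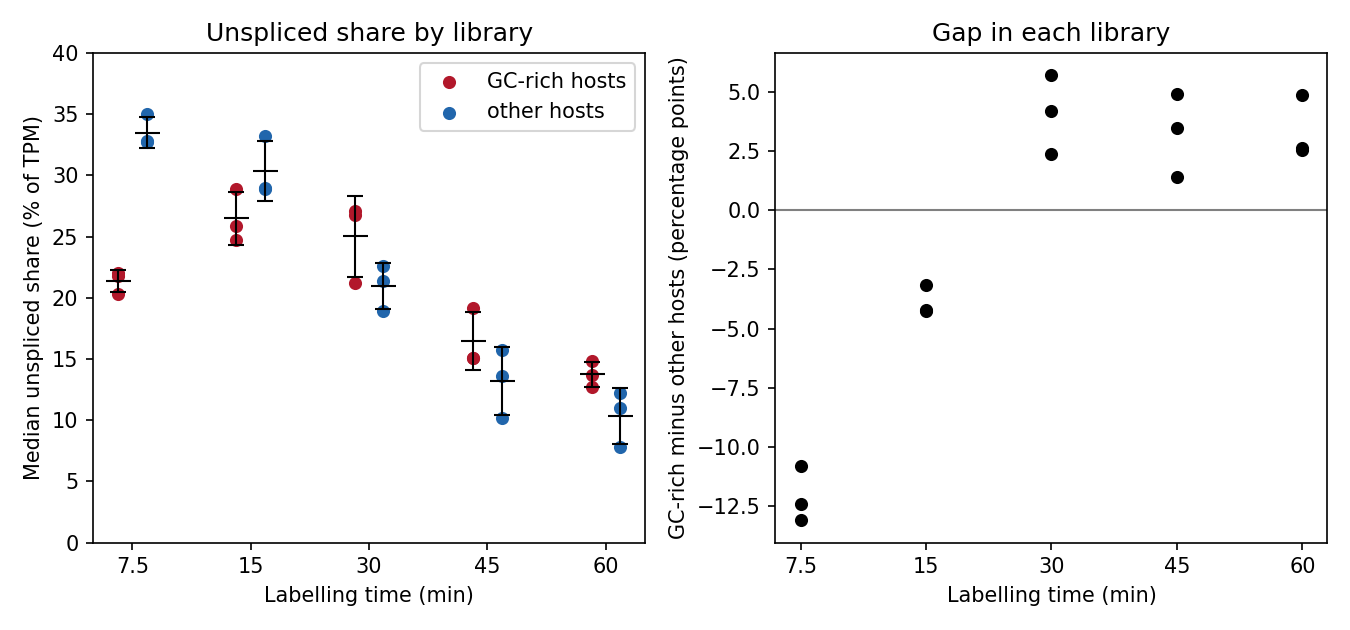
Left, median unspliced share (% of TPM) over 108 GC-rich and 2023 other host genes in each labelled library, with the mean and SD of 3 libraries in black. Right, the gap in percentage points within each library, which lies below 0 in the 6 libraries of 7.5 and 15 min and above 0 in the 9 later ones.

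The gap moved with the degradation score here too. At 7.5 min it averaged −14.1 points in the class of slowest decay (53 GC-rich and 657 other hosts), −13.0 in the middle class and 0.721 in the class of fastest decay (28 and 683). At 30 min it was 3.11, 4.38 and 4.42 points, and at 60 min 3.23, 3.99 and 2.10. The late excess of unspliced RNA was thus present in every class and the early deficit in 2 of 3. In bulk RNA, fewer unspliced molecules and more spliced ones cannot be told apart in such a share. The median degradation score was −0.30 in GC-rich hosts and −0.18 in other hosts, and the median processing score 0.33 and 0.24 (the authors' deposited rates, centred scores). Ribosomal protein genes were 4 of the GC-rich hosts.

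Per gene, the ratio of primary to mature TPM was compared with limma on log2((primary + 0.1)/(mature + 0.1)). Between 7.5 and 60 min the ratio was lower at 60 min in 51 of 108 GC-rich hosts (62.8% of all 13879 genes tested) and higher in 15 (1.09% of all genes tested), at a limma Benjamini-Hochberg adjusted threshold of 0.05. In other hosts it was lower in 1863 of 2023 and higher in 9. The median log2 change was −0.75 in GC-rich hosts, −2.13 in other hosts and −1.81 over all genes. With each library centred at its median ratio, the split was 5 lower and 63 higher in GC-rich hosts and 508 and 215 in other hosts, against 14.9% lower and 12.8% higher of all genes tested. As shares, 47.2% of GC-rich hosts and 92.1% of other hosts had a lower ratio at 60 min, and 13.9% and 0.445% a higher one. Relative to the shift of −1.81 over all genes, the median of GC-rich hosts lay higher and that of other hosts lower.

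Between 7.5 and 30 min the ratio was lower in 6 GC-rich hosts (23% of all genes tested) and higher in 26 (3.21% of all genes tested), and the median log2 change was 0.24, against −0.68 over all genes. In other hosts it was lower in 942 and higher in 55. Those counts moved with single libraries: 597 were lower without replicate 1 at 7.5 min, 479 without replicate 2 at 30 min, and 33 were higher without replicate 3 at 7.5 min. Over all genes, the 23% lower was 11.3% without replicate 2 at 30 min, 14.9% without replicate 1 and 15.2% without replicate 3 at 7.5 min, and 15.2% without replicate 1 at 30 min, and the 3.21% higher was 2.02% without replicate 3 at 7.5 min. Centred, the GC-rich split was 2 lower and 52 higher, against 8.65% and 8.29% of all genes tested. Between 7.5 and 15 min limma called 0 genes, GC-rich hosts included, while 29 GC-rich hosts and 1355 of all genes had an unadjusted p under 0.05, and the median log2 change was 0.36 and −0.13. By another count, all 3 libraries at 15 min had a higher unspliced share than all 3 at 7.5 min in 38 of 108 GC-rich hosts (7.32% of all genes tested). The same held at 30 min in 39 (7.75%) and at 60 min in 20 (2.31%). All 3 at 60 min lay below all 3 at 7.5 min in 62 GC-rich hosts (72.3% of all genes tested) and in 1922 of 2023 other hosts.

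Among GC-rich hosts whose ratio rose, APRT had an unspliced share of 18.3%, 15.3% and 14.6% at 7.5 min, 67.4%, 51.0% and 66.7% at 30 min, and 62.5%, 51.5% and 47.1% at 60 min. All later values lay above the earliest, and the ratio rose by 2.61 on the log2 scale (SE 0.40, limma adjusted p = 0.000118). Mature APRT went from 264, 157 and 258 TPM to 64.5, 68.1 and 55.4, and primary APRT from 59.0, 28.2 and 44.3 TPM to 108, 72.4 and 49.4. GPX4 had 1.08%, 0.903% and 0.880% unspliced at 7.5 min, 10.4%, 8.99% and 10.7% at 30 min and 4.03%, 3.31% and 4.52% at 60 min, and its ratio rose by 2.06 (SE 0.41, adjusted p = 0.000683). NDUFB10, a complex I subunit, rose by 2 on that scale, RPL36, a ribosomal protein, by 1.75, and EDF1, a ribosome-associated coactivator, by 1.74. RPL36 remained below 1.70% unspliced in every labelled library. Ribosomal protein genes have many processed copies in the genome, so the split of their mature reads is uncertain.

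The largest falls among GC-rich hosts were led by SKI. SKI, a TGF-beta signalling corepressor, had 59.8%, 73.3% and 74.7% unspliced at 7.5 min and 8.18%, 19.9% and 24.3% at 60 min, and its ratio changed by −3.57 on the log2 scale (SE 0.63, limma adjusted p = 0.000314). MIDN, the gene of midnolin, which promotes breakdown of nuclear proteins by the proteasome, went from 34.4%, 38.8% and 33.6% to 5.48%, 8.18% and 5.65% (−3.02). The log2 change was −2.90 in PFKFB3, a glycolytic regulator, −2.89 in ZNF557, a zinc finger gene, and −2.82 in ANKRD11, a chromatin regulator. ANKRD11 had a log2 change of −0.99 after centring (limma adjusted p = 0.0586). The ANKRD11 intron printed above went from 0.374 excised at 7.5 min to 0.857 at 60 min. It was chosen for a large increase, so its direction was set by the choice and is no check on the gene-level ratio.

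The genes of other introns named above gave a second reading of the same RNA. RPLP2 had 4.66%, 3.87% and 3.07% unspliced at 7.5 min, 23.9%, 22.6% and 25.8% at 30 min and 15.1%, 17.5% and 13.2% at 60 min, with a limma log2 change at 60 min of 2.18 (adjusted p = 1.41e-05). BSG rose by 1.31 at 60 min. Other genes of the introns highest at 7.5 min went the other way. The log2 change at 60 min was −1.89 in PIEZO1 (limma adjusted p = 0.000338) and −1.32 in AP3D1 (adjusted p = 0.00375). It was −0.20 in EPN1 (adjusted p = 0.639) and −0.75 in BTBD2 (adjusted p = 0.0759), which did not pass. Over all genes tested, 62.8% had a lower ratio at 60 min and 1.09% a higher one. EIF3G and NDUFA11 had higher ratios at 30 min, by 0.94 (adjusted p = 0.00845) and 1.83 (adjusted p = 0.00416), and log2 changes of 0.41 and 0.67 at 60 min that did not pass. OAZ1 rose by 1.64 at 30 min and had a change of 0.10 at 60 min (adjusted p = 0.848). MYC went from 39.0%, 37.9% and 42.3% unspliced at 7.5 min to 1.76%, 2.75% and 3.39% at 60 min. Its ratio changed by −4.65 on the log2 scale (SE 0.29, limma adjusted p = 2.23e-06). TLE3 (−3.47), HES1, a Notch target repressor (−2.77), and BCOR (−2.87) fell too. The introns named in MYC, TLE3, HES1 and BCOR were chosen for a large increase, so their own direction was set by that choice. The ratio fell also in CDK16 (−1.97), AURKB (−1.45) and DDX39A (−2.24). The introns named in these 3 genes were excised no more at 60 min than at 7.5 min. The gene-level share covers all introns of a gene, and the excised share 1 of them.

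Markers of HEK293 and of other cell types were read on mature TPM, which did not settle the identity of the cells. LHX1 and NEFL, also chosen for HEK293, were not found by symbol. VIM was at 228 to 1040 TPM over the 18 libraries, whereas PAX2 reached 10.0 and NEFM 2.40, and both were listed at 0 in some libraries. Of markers of other cell types, CD3E was listed at 0 throughout, PTPRC reached 0.110, ALB 0.320, GFAP 1.81 and COL1A1 5.78 TPM, and HBA1 18.8 TPM in poly(A) total RNA.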

How the data were processed

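RNA from 18 HEK293 libraries was measured, 15 of labelled RNA and 3 of total RNA. The authors deposited TPM for mature and primary transcripts, which carry no depth. RSEM 1.2.11 and Bowtie 1.0.1 were run on hg19, per the submitters' processing notes, and per the file headers the annotation was GENCODE release 19 with 1 added isoform per gene spanning the locus. Per the file headers, the authors deposited the excised share (bam2ssj) and GC content as a fraction, lengths and distances on a log10 scale, and MaxEnt, SVM-BPfinder and rate values as a score. No source used here names the aligner behind the junction reads.

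Lengths were rounded to whole nucleotides. Members, lists and tests were chosen with earlier results of these data known. Introns named are the 6 lowest at 60 min, the 6 with the largest increase and the 6 highest at 7.5 min, 1 a gene, the 3 on each side of the GC boundary, the 5 genes with most members, the 4 within-gene extremes each way (5 of these 8 are described) and the 5 largest changes each way among GC-rich hosts. Symbols and sequences came from GENCODE release 29 (GRCh38). A sequence was accepted where gene, length and GC fraction (within 2e-06) matched an intron inside an annotated transcript. No coordinates were moved between builds. Some items that these rules select are not reported here.

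The ratio of primary to mature TPM (pseudocount 0.1, mean mature TPM of 1 or more, mean primary TPM of 0.1 or more) was tested with limma 3.58.1 in R 4.3.3 on 15 labelled libraries, with a trend and Benjamini-Hochberg adjustment over 13879 genes at 0.05. The log2 scale with a pseudocount understates changes of low values. The limma step was tested on simulated data. Other steps used Python 3.11.15, pandas 2.3.3, numpy 2.4.6 and scipy 1.17.1. Gaps between hosts had two-sided exact permutation tests or 100000 permutations. Alternatives were GC and length limits, length, position and decay classes, filters, pseudocounts, centring, a replicate block and leaving out libraries.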

Additional observations from a re-analysis of the deposited data

How the results depend on the processing

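The gap in median excised share, GC-rich minus other medium-length introns, was tried under 9 other settings and 6 chosen after seeing the data, and a change of more than 0.01 was counted as a move. At 7.5 min it was 0.112 and moved to 0.090 with a GC threshold of 0.50 and 0.148 with 0.60, 0.090 as the mean within 5 length classes, 0.091 with 1 value a gene and class, 0.097 with means over introns, 0.089 within classes of the degradation score, 0.101 within classes of the level in total RNA, 0.096 within classes of distance to the polyadenylation site and 0.092 without chromosome 19. At 15 min the gap of 0.012 was too small to keep its sign: it was −0.003 with a threshold of 0.50, −0.001 within length classes, 0 within degradation classes, 0.038 with a threshold of 0.60, and 0.037 and 0.034 within classes of distance to the start and to the polyadenylation site. At 30 min (−0.069) it was −0.083 with 0.50, −0.052 with 0.60, −0.091 within length classes, −0.052 with 1 value a gene and class, −0.044 with splice site scores at or above the median, and −0.020 and −0.013 within classes of the 2 distances. At 45 min (−0.069) it was −0.085 within length classes, −0.055 with 1 value a gene and class, −0.051 with the stronger splice sites, and −0.028 and −0.024 by distance. At 60 min (−0.054) it was −0.066 within length classes, −0.064 without chromosome 19, and −0.027 and −0.025 by distance. The cause of these moves was not tested.

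For host genes, centring each library at its median ratio gave 5 lower and 63 higher GC-rich hosts and 508 lower and 215 higher other hosts at 60 min (14.9% and 12.8% of all genes), and 2 and 52, and 335 and 163, at 30 min (8.65% and 8.29%). At 15 min 1 GC-rich host was higher with a pseudocount of 1 and 1 with the replicate block. Leaving out single libraries gave 479 to 983 lower and 33 to 64 higher other hosts at 30 min, the highest of each without replicate 2 at 45 min. The host gap change of 15.4 points ranged from 11.9 to 16.1 over the alternatives, leave-one-out included, and kept its sign in each. Same-numbered libraries resembled each other more than different-numbered ones, with a median correlation of 0.082 against −0.05. Of 15 libraries, 13 correlated best with their own number, though only 12 of the 30 same-numbered correlations were over 0.1. The numbers were not taken as pairs in the main tests. The permutations of the correlation with labelling time ran over all 15 libraries regardless of number, so that p does not account for this likeness. With the replicate number as a block, 55 GC-rich hosts were lower and 16 higher at 60 min, and the exact sign-flip p of the gap change was 0.25, the smallest it allows. Excised shares have neither depth nor replicates, so no gap at a single time has an error.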
